A study of Mus musculus with 45 samples.

Results

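The 85 genes described here encode the nuclear subunits of the oxidative phosphorylation complexes and were taken by symbol (Nduf, Sdh, Uqcr, Cox and Atp5 families) from 21627 mouse genes that code for proteins and lie on an autosome (1 to 19) or X. They comprised 40 genes of complex I, 4 of complex II, 8 of complex III, 16 of complex IV and 17 of complex V. The symbol rule leaves out a few subunits, among them Cox4i1, Cyc1 and Ndufab1, which are described at the end with the other electron transfer genes. For each gene, the summits of REV-ERBα peaks inside its span or within 10 kb of it were collected, with the fold of the strongest, its distance to the gene's ends and the number of sites.

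The study mapped REV-ERBα and related chromatin features in mouse liver by ChIP-seq, and 8 of its 45 samples underlie the lists used here. All 8 came from livers of the genotype REV-ERBa3HA/3HA, in which both copies of the receptor gene carry an HA tag, with no AAV given, and were precipitated with anti-HA magnetic beads. They were taken at zeitgeber time 10 (ZT10, 4 samples) and ZT22 (4 samples), hours of the light-dark cycle counted from lights on. The other 37 samples (histone marks, NCOR1, input, untagged liver and livers given AAV) were not analysed here. The 4 samples of a time were pooled before peaks were called, so each time has 1 list, no spread between replicates can be given, and no test was run. Bulk liver holds several cell types, and a peak list cannot show in which of them a site was bound, nor can it be checked against cell type markers. The ages and sexes of the mice are not given in the sources used here.

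Oxidative phosphorylation passes electrons from NADH (complex I) and succinate (complex II) through complex III to oxygen at complex IV, and the proton gradient built on the way drives ATP synthase, complex V. Most subunits are encoded in the nucleus, and their genes are known to be controlled through promoters with sites for NRF1, for ETS factors such as GABP, and for YY1, with coactivators of the PGC-1 family. REV-ERBα is a nuclear receptor that represses transcription by recruiting NCOR1. It binds DNA at ROR elements, an AGGTCA core preceded by A and T bases, or at a pair of such cores named RevDR2, and can also be brought to chromatin by other factors. Its level in liver is known to peak late in the light phase and to be low late in the night.

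The sequences below are the 250 bases before the transcription start of 7 members, from RefSeq on GRCm38.p6, the assembly of mm10, each written 5′ to 3′ on the gene's own strand. Ndufa4 (chr6:11907451-11907700, minus strand) is shown because it had the strongest summit at a member's start, and Ndufs8 (chr19:3912775-3913024, minus) because it had the next strongest. Sdha (chr13:74350241-74350490, minus) and Sdhb (chr4:140961021-140961270, plus) represent complex II, and Sdha holds 3 NRF1 matches. Ndufs4 (chr13:114388095-114388344, minus) holds a loose ROR match, Atp5l (chr9:44920743-44920992, minus) an ETS and an AGGTCA match, and Ndufs3 (chr2:90904722-90904971, minus) had no summit in reach. Capitals mark matches, on either strand, to the NRF1 motif (GCGCA and GCGC with 1 base between), the ETS motif (CCGGAAG), the AGGTCA core and a loose ROR element (A, any 2 bases, T, any 1 base, then GGTCA). These genes were chosen after their values were seen. The start summits of Ndufs8, Sdhb and Ndufs4 lay 102, 156 and 167 bp after the start, outside the bases shown.
Ndufa4: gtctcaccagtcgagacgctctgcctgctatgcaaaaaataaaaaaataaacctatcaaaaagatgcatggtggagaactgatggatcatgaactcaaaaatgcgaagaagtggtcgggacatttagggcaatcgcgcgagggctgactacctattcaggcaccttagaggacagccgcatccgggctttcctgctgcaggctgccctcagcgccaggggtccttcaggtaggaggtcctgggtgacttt
Ndufs8: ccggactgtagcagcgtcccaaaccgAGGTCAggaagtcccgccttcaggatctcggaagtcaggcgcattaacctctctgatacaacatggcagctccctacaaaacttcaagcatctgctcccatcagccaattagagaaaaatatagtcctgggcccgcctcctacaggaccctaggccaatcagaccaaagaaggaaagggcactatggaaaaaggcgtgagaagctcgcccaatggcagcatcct
Sdha: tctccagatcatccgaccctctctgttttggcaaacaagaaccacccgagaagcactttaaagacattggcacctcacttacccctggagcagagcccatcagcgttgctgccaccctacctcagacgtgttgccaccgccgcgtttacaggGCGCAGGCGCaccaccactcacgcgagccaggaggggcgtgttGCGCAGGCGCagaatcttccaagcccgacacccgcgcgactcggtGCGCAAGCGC
Sdhb: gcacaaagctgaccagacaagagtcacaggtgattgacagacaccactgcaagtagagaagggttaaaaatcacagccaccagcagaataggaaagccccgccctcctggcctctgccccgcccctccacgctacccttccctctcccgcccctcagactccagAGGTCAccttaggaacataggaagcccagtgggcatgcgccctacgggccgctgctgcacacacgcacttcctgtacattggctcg
Ndufs4: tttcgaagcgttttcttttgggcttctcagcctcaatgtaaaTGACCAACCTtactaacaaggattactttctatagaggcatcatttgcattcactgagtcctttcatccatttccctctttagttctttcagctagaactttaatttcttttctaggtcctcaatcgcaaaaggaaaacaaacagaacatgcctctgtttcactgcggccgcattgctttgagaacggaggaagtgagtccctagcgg
Atp5l: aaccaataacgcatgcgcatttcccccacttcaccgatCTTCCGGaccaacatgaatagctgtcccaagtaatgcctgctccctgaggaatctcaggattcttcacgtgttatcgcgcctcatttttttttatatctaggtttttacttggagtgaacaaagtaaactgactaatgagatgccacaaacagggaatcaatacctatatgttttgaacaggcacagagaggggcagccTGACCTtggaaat
Ndufs3: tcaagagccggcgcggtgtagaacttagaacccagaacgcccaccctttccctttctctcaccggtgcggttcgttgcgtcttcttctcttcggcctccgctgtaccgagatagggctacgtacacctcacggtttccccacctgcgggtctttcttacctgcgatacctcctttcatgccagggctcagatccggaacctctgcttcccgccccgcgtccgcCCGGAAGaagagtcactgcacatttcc

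At ZT10, 73 of the 85 members (85.9%) had a REV-ERBα summit in the span or within 10 kb, where 54.5% of all protein-coding genes did. Members thus had a summit more often than all genes, but their summits were mostly weak. The strongest fold (the ratio of the summit's fragments to the local background, as the authors gave it) had a median of 6.03 over the 73 members, with quartiles of 4.93 and 7.64 and a range of 4.12 to 18.2. The same median over all genes with a summit was 7.82, and the median of all ZT10 peaks was 6.81. The median span was 7131 bp for members and 17330 bp for all genes, and the part of span length in these folds was not tested. A fold of 10 or more was reached by 8 members (9.41%), against 19.1% of all genes. From the fragments behind each summit, the exact Poisson interval of the strongest fold (95%, counting error only) lay wholly below 6.81 for 32 members and wholly above it for 18. The same counts were not made for all genes, and 6.81 is a median over single peaks, not over the strongest peak of each gene. With only summits of −log10 q of at least 10, 55 members (64.7%) kept a summit in reach, beside 46.1% of all genes.

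The 73 members had 126 distinct sites, and no site was in reach of more than 1 member. A single site was found for 37 members and 2 sites for 24. The 12 members with 3 or more sites (14.1%, where 17.3% of all genes had as many) included Atp5b, Atp5d, Atp5h, Cox7a2, Ndufa6, Ndufa7, Ndufb1, Ndufb8, Ndufs7, Ndufv1 and Uqcrq. Ndufa6, an accessory complex I subunit, had the most, with 5 sites of fold 10.3, 8.74, 6.44, 5.02 and 4.33. Ndufb8, another accessory subunit, had 3 of the weakest kind, with folds of 4.65, 4.47 and 4.33.

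**Figure D1:**
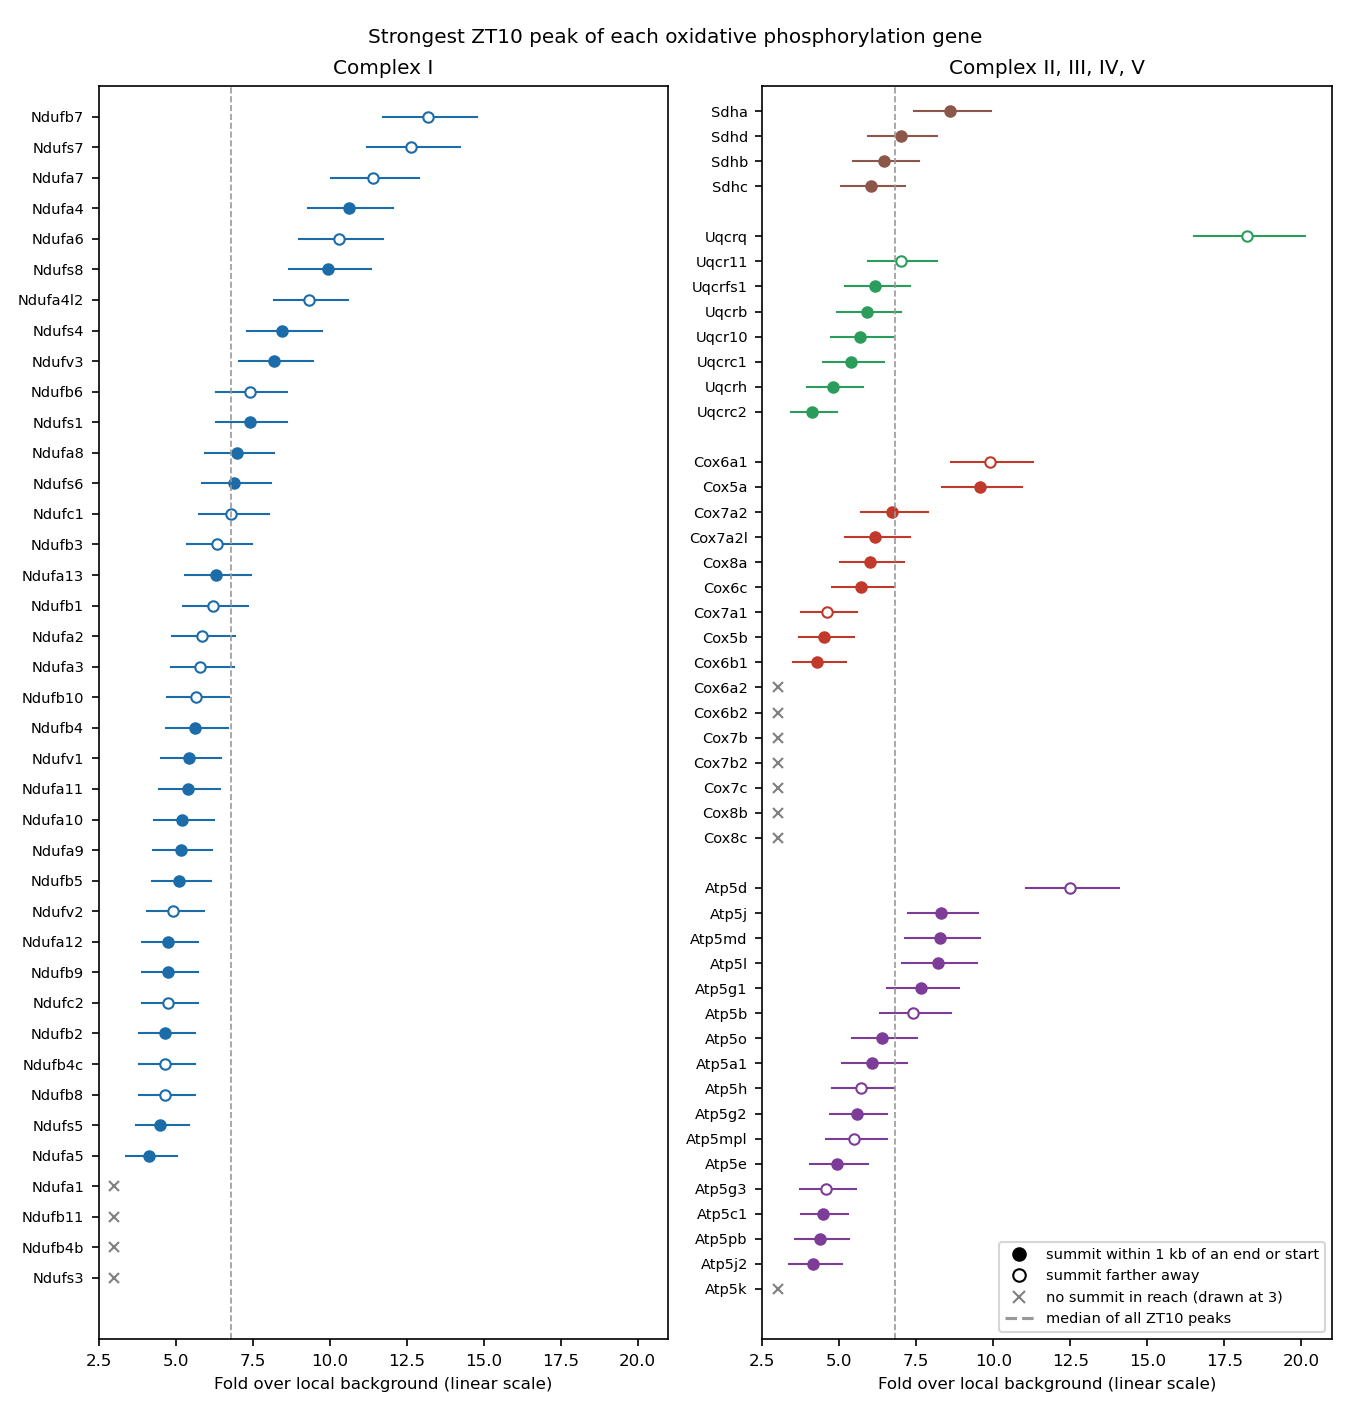
Fold of the strongest ZT10 summit in reach of 84 members, by complex, on a linear axis, with bars for the 95% Poisson interval of counting error and a dashed line at the median of all ZT10 peaks (6.81). Filled points have their strongest summit within 1 kb of a gene end or listed start, open points have it farther away, and crosses drawn at 3 mark the 12 members with no summit. Most members lie under a fold of 10, and 6 of the 7 drawn at or above it are open points.

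The sites clustered at transcription starts. A start and a strand were known for 70 members, and 54 of them (77.1%) had a summit within 1 kb of the start, against 34.5% of all genes with a known start. Taking the strongest summit within 1 kb of the start of each of the 54, 50 lay within 500 bp and 43 within 250 bp. The median position was 19.5 bp after the start, and 29 of the 54 lay downstream of it. The other end of the gene was rarely marked: 3 members (4.29%) had a summit within 1 kb of the finish, where 3.72% of all genes did. Counting either end and all 85 members, 63 (74.1%) had a summit within 1 kb, beside 32.7% of all genes. The share with a start summit of −log10 q of at least 10 was 52.9% (37 of 70) for members and 26.4% for all genes.

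The summits at starts were frequent but not strong. Their median fold was 5.59, with a range of 4.10 to 10.6, where the start summits of all genes had a median of 6.26. A start summit of fold 10 or more was found at 1 of 70 members, Ndufa4, and at 5.34% of all genes. For 39 of the 54 members, the start summit was also the strongest in reach. That is automatic for a member with a single site, as 37 of the 73 had, and the share was not computed for all genes. The 55 member sites within 1 kb of a start had a median fold of 5.56, and the 49 other sites of the same 70 members had a median of 5.48. The strong ones were among the latter: 5 of those 49 had a fold of 10 or more, against 1 of the 55 at starts. Over the whole list the same held in shares, with a fold of 10 or more in 15.7% of 5592 peaks within 1 kb of a listed start and in 30.0% of 21448 peaks farther away.

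**Figure D2:**
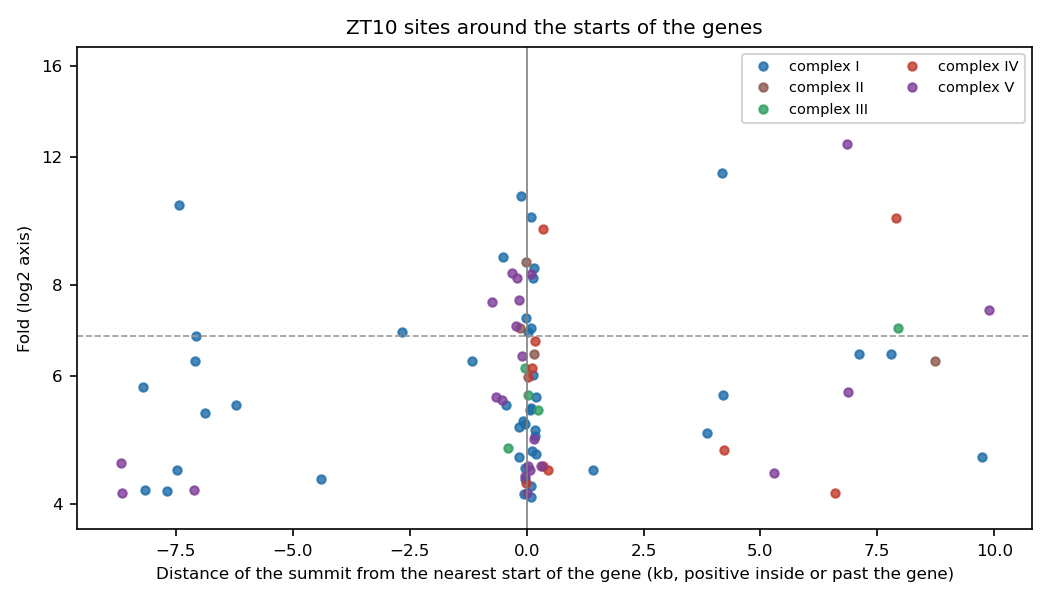
Position of each ZT10 summit near the start of the 70 members with a known start, as distance in kb from the start in the direction of transcription, against the fold of the summit on a log2 axis. Colours give the complex and the dashed line is the median of all ZT10 peaks (6.81). The points gather around 0, with 43 members having their strongest start summit within 250 bp, and 1 summit within 1 kb reaches a fold of 10.

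Where a member's strongest summit had a fold of 10 or more, it mostly lay nearer to another gene. Of the 8 members with a fold of 10 or more, 3 were themselves the gene whose end was closest to the summit (Ndufa4, Ndufa6 and Ndufa7), and 1, Ndufa4, had it within 1 kb of an end. Over all 73 members, the strongest summit was nearest to the member itself in 45, and lay within 1 kb of an end or a listed start in 47. These counts were not made for all genes, so they cannot be read as particular to the members. The reference gives spans and starts and no exons, so a summit is placed here inside or outside a span only.

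In complex I, which takes electrons from NADH, 36 of 40 members had a summit in reach, with a median strongest fold of 6.03, and 26 of 34 had one at the start. The 33 members outside the core had a median of 5.82, with a summit in 30. The core subunits carry the flavin and the iron-sulfur clusters or form the quinone site. Ndufs7, which holds the last iron-sulfur cluster, had a summit of 12.6 (11.2 to 14.2) 7926 bp away, nearest to Dazap1, an RNA-binding protein gene, while the summit 91 bp after its own start had a fold of 4.24 (3.44 to 5.17).

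Ndufs8, another iron-sulfur subunit, had its strongest summit at its own start, with a fold of 9.93 (8.67 to 11.3) at 102 bp downstream. Ndufs1, the largest iron-sulfur subunit, had 7.41 at 91 bp outside its span, with Eef1b2, a translation elongation factor gene, at 82 bp. Ndufv1, which binds NADH and flavin, had 4 sites of 5.43, 5.34, 4.74 and 4.19, the first of them 98 bp after its start. Ndufv2 had 1 summit of 4.93 at 1430 bp from an end. Ndufs3 had none within 10 kb, and the closest ZT10 summit, of fold 10.4, was 13845 bp away. Of the core subunits, therefore, Ndufs8, Ndufv1 and Ndufs7 had a start summit among the 5 with a known start.

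Among the accessory subunits, Ndufa4 had the strongest start summit of all members, with a fold of 10.6 (227 fragments, interval 9.31 to 12.1) 122 bp before its start. Its protein was first assigned to complex I and is now placed by biochemistry in complex IV. Ndufb7 had a summit of 13.2 (11.7 to 14.8) 9446 bp away, inside the span of Tecr, an enzyme of fatty acid elongation, and one of 4.97 (4.10 to 5.98) 185 bp after its own start. Ndufa7 had 11.4 (10.0 to 12.9) inside its span, 4249 bp from an end, and 7.22 at its start. Ndufb1 had 3 sites, of 6.21, 5.48 and 5.48, each nearest to Atxn3 or Cpsf2. Ndufc2 had its strongest summit, of 4.74, at 208 bp from Thrsp, a gene of lipid synthesis, and was chosen for mention after its value was seen.

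All 4 genes of complex II, succinate dehydrogenase, had a summit within 1 kb of an end. Sdha, the flavoprotein, had 8.60 (7.43 to 9.91) at 18 bp before its start, and Sdhb, the iron-sulfur subunit, had 6.44 (5.44 to 7.58) at 156 bp after it. Sdhd, a membrane anchor, had 6.99 (5.94 to 8.18) at 149 bp before its start, where the start of Timm8b, a mitochondrial import gene on the other strand, lies 52 bp from that of Sdhd. Sdhc, the other anchor, had 6.03 (5.06 to 7.14) at 93 bp outside its span. The median over the 4 was 6.72, and their intervals overlapped except those of Sdha and Sdhc.

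In complex III, all 8 members had a summit, with a median of 5.78 and start summits in 4 of the 5 with a known start. Uqcrq stood apart with the highest fold of any member, 18.2 (393 fragments, interval 16.5 to 20.1) at chr11:53420480-53426772. That summit was 4738 bp from Uqcrq and 48 bp from Leap2, which encodes a peptide hormone made in liver. A further Uqcrq site of 12.5 (11.2 to 13.9) lay 1034 bp outside its span and was nearest to Uqcrq by gene ends, and Gdf9 covers that position. Uqcr11 had 6.99 at 4114 bp, nearest to Mbd3, a gene of the NuRD chromatin complex. Uqcrfs1, the Rieske iron-sulfur protein, had 6.17 (5.18 to 7.29) at 27 bp before its start.

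Complex IV, cytochrome c oxidase, had the lowest share of members with a summit of the 5 complexes, 9 of 16 (56.3%, near the 54.5% of all genes). The median strongest fold was 5.98, and start summits were found in 7 of 13. Its members include the muscle, heart or testis isoforms Cox6a2, Cox6b2, Cox7a1, Cox7b2, Cox8b and Cox8c, of which only Cox7a1 had a summit. The part of these isoforms in the share of complex IV was not tested. Cox6a1 had 9.89 (8.62 to 11.3) at 4587 bp, 96 bp from Gatc, a mitochondrial translation gene, and 4.47 (3.64 to 5.43) at 455 bp after its own start. Cox5a, which contributes to the matrix side of the enzyme, had 9.57 (8.32 to 10.9) at 345 bp after its listed start. Cox7a2 had 6.72 at 182 bp after its listed start and 2 weaker sites of 4.76 and 4.42.

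In complex V, ATP synthase, 16 of 17 members had a summit, with a median of 5.89, and 14 of 15 had one at the start. The 5 genes of the catalytic F1 head and central stalk all had one, with a median of 6.07, and the other 12 had 11 with a median of 5.71. Atp5d, the delta subunit of the stalk, had 12.5 (11.1 to 14.1) at 3343 bp, nearest to Midn, and 7.59 inside its span. Atp5b, the catalytic beta subunit, had 7.04 (5.98 to 8.23) at 230 bp before its start and 7.41 (6.32 to 8.63) nearer to Baz2a, values that do not differ beyond counting error. Atp5j, a subunit of the peripheral stalk, had 8.31 (7.24 to 9.50) at 313 bp before its start and 398 bp from Gabpa, the gene for the DNA-binding subunit of GABP, whose start lies 148 bp from that of Atp5j on the other strand. Atp5md, a small membrane subunit, had 8.28 (7.13 to 9.57) at 97 bp after its start. Atp5h had 3 sites, of 5.71, 5.61 and 4.51, and the weakest, 28 bp after its start, was the one nearest to it.

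The 12 members with no summit in reach were Ndufa1, Ndufb11, Ndufb4b and Ndufs3 of complex I, Cox6a2, Cox6b2, Cox7b, Cox7b2, Cox7c, Cox8b and Cox8c of complex IV, and Atp5k of complex V. None of the 12 had a peak over any base of its span. For 3 of them the closest summit was just beyond the reach, at 11908 bp (Cox6b2), 13660 bp (Cox8b, fold 16.8) and 13845 bp (Ndufs3). Cox7c, a widely expressed subunit, was the farthest, with no summit for 755678 bp. Cox7b, Ndufa1 and Ndufb11 are the 3 members on the X chromosome. There, 13.0% of all genes had a summit in reach, where 56.4% of autosomal genes did.

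Tissue isoforms had summits less often than their widely expressed partners, with groups too small to say more than the counts. Of 7 isoforms known from muscle, heart, testis or low oxygen, 2 had a summit in reach (28.6%), beside 54.5% of all genes. Of the 4 with a known start, 0 had one there, where 34.5% of all genes with a known start did. The median span was 1505 bp for the isoforms and 6915 bp for the partners, and the part of span length was not tested. Cox7a1, the heart and muscle form, had 4.60 at 8733 bp, nearest to Capns1. Ndufa4l2, the form induced by low oxygen, had 9.33 and 8.60, both nearest to Shmt2, a mitochondrial enzyme of one-carbon metabolism. Cox6a2, Cox8b, Cox6b2, Cox7b2 and Cox8c had none. Of the 6 partners, 5 had a start summit: Ndufa4 (10.6), Cox7a2 (6.72), Cox8a (5.98), Cox6a1 (4.47) and Cox6b1 (4.28). Cox7b, on X, had none. When the special isoforms and the gene copies Ndufb4b and Ndufb4c were left out, a choice made after seeing the data, 70 of 76 members had a summit.

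Many members share a promoter region with a neighbour. An opposite-strand start of another protein-coding gene lay within 1 kb in 21 of 70 members (30.0%), against 9.73% of all genes. A start summit was found in 17 of those 21 (81.0%) and in 37 of the 49 other members (75.5%). For all genes the shares were 73.0% with such a neighbour and 30.4% without. A summit between such a pair cannot be assigned to either gene. The closest pairs with a start summit were Ndufa7 with Rps28 at 10 bp, Sdhd with Timm8b at 52 bp, Ndufa11 with Vmac at 63 bp, Ndufb3 with Fam126b at 64 bp and Sdha with Ccdc127 at 77 bp. Pairs with no start summit were Ndufa1 with Rnf113a1 at 16 bp, Ndufs3 with Kbtbd4 at 19 bp, Ndufb11 with Rbm10 at 116 bp and Ndufa13 with Tssk6 at 164 bp. Ndufa13 missed the limit of 1 kb narrowly, with a summit of 6.30 at 1167 bp before its start and 331 bp from an end of Tssk6.

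Motifs were searched in 300 bases around each start (250 before and 50 after), on both strands. This was done for the 70 members with a window and for all 17273 genes with one. The window follows the start and not the summit, so the sequence under a summit was not searched as such. Many start summits lay outside the window, as at Ndufs4 (167 bp after the start) and Atp5d (738 bp before it). The AGGTCA core was found in 17 members (24.3%) and in 16.6% of all genes. It was in 13 of the 54 members with a start summit (24.1%) and in 4 of the 16 without one. The loose ROR element, which can overlap the AGGTCA core, was in 2 members, Ndufs4 and Cox7a1 (2.86%, all genes 2.56%). The RevDR2 pair (AGGTCA, any 3 bases, GGTCA) was in 0 members and in 1 of the 17273 windows. Ndufs4 had a start summit of 8.46 at 167 bp after its start, and Cox7a1 had none.

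Motifs for NRF1, ETS factors and YY1 were in a larger share of members than of all genes, and those for SP1 and E-box factors were not. The NRF1 motif was in 17 members (24.3%) and in 7.25% of all genes. It was in 16 of the 54 members with a start summit (29.6%) and in 1 of the 16 without (6.25%), and the shares for all genes were 13.7% and 3.83%. The ETS motif CCGGAAG was in 17 members (24.3%, all genes 13.1%). Among genes with a start summit the ETS shares were close, 25.9% of members and 22.6% of all genes, and without one they were 18.8% and 8.10%. The YY1 motif ATGGCGGC was in 6 members (8.57%, all genes 3.54%), with 11.1% of members and 6.44% of all genes among those with a start summit. The E-box CACGTG was in 6 (8.57%, all genes 9.02%). The SP1 motif GGGCGG was in 28 (40.0%, all genes 49.8%), and in 38.9% of members with a start summit against 71.3% of all genes with one. The median GC content of the windows was 57.8% for members and 56.7% for all genes, and 58.8% against 61.3% among those with a start summit. A match describes letters only, and binding of these factors was not analysed here. The part of base composition in these shares was not tested.

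**Figure D3:**
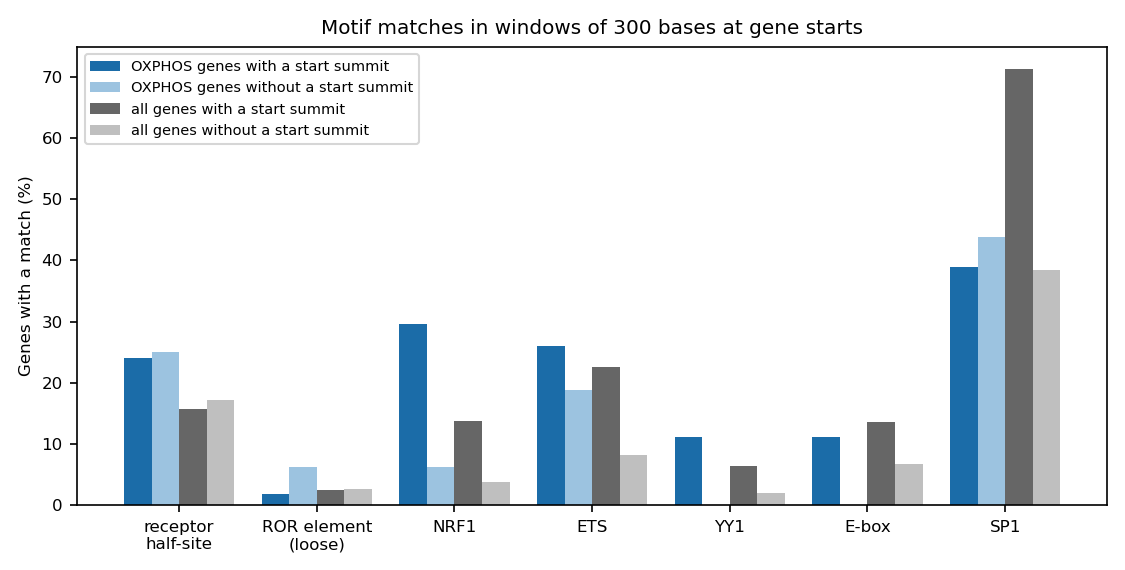
Share of genes whose 300-base window around the start holds each motif, for members with and without a start summit and for all genes with and without one. The NRF1 bar of members with a start summit is at 29.6%, and their SP1 bar, at 38.9%, is below the 71.3% of all genes with a start summit.

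At ZT22 no member had a summit in reach, 0 of 85, where 0.0694% of all genes (15) did. The whole ZT22 list held 36 peaks and the ZT10 list 27929, so an empty result for 85 genes is near that background. The ZT22 summit closest to any member was 983473 bp from Atp5md.

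Other families of constitutively expressed genes had much the same pattern. The 84 cytosolic ribosomal protein genes had a summit in reach in 88.1% and a start summit in 78.1%, with a median strongest fold of 5.96 and a median of 5.48 at the start. The 78 mitochondrial ribosomal protein genes had 79.5%, 71.0%, 6.74 and 5.71. The shares and folds of the subunit genes (85.9%, 77.1%, 6.03 and 5.59) were close to those of the cytosolic family, and no test was run between the families.

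**Figure D4:**
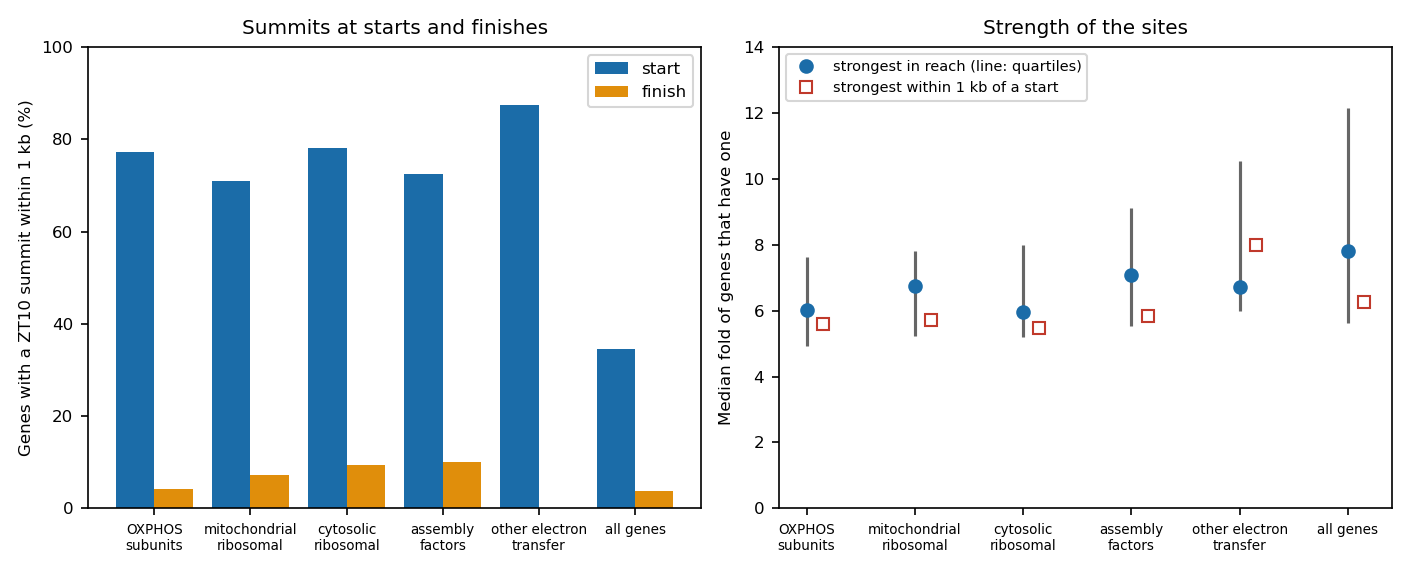
Left, share of genes with a known start that had a ZT10 summit within 1 kb of the start or of the finish, for the subunit genes (OXPHOS), 4 comparison lists and all genes. Right, median fold of the strongest summit in reach, with lines for the quartiles over genes, and median fold of the strongest summit within 1 kb of the start (open squares). The subunit genes have start summits in 77.1% and all genes in 34.5%, while their median folds, 6.03 and 5.59, are below the 7.82 and 6.26 of all genes.

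Genes that build or regulate the complexes had median strongest folds above the 6.03 of the subunit genes, and those of assembly factors and other electron transfer genes were below the 7.82 of all genes. Their spans were also longer, with medians of 10409.5 bp (assembly factors), 14381.5 bp (other electron transfer genes) and 28048.5 bp (regulators) against 7131 bp for the subunit genes. A longer span takes in more sequence, and the part of span length in these folds was not tested. Of 46 assembly factors, 39 had a summit, with a median strongest fold of 7.08 and a median of 5.83 at the start. The strongest were at Sco2 (31.4, 1791 bp from its nearer end), Cox20 (26.7, within 1 kb of its start) and Cox14 (21.9, 9397 bp from its nearer end). Sco2 and Cox14 are needed to assemble cytochrome c oxidase, and Cox20 is a chaperone for a subunit of that enzyme. Which gene lay nearest to these summits is not given here. Of 20 genes listed as other electron transfer genes, 17 had a summit, with a median strongest fold of 6.72. That list also held the carrier genes Slc25a3, Slc25a4 and Slc25a5 and Dmac2l, which do not transfer electrons. Over that list, a start summit was found in 14 of 16, with a median fold of 7.98. The strongest were Coq8a (38.6), a kinase-like protein of coenzyme Q synthesis, Etfa (20.6), a subunit of the electron transfer flavoprotein, and Ndufab1 (13.4), the mitochondrial acyl carrier protein, all at the start. The strongest summits of Cox4i1 and Cyc1 were weaker, with folds of 6.44 and 5.24. Of 12 regulators of mitochondrial gene expression, 11 had a summit, with a median strongest fold of 8.14 and a median of 7.23 at the start. They were led by the coactivators Ppargc1b (25.1, strongest of 8 sites) and Ppargc1a (17.01, inside its span, strongest of 12 sites) and the mitochondrial transcription factor Tfb2m (10.8).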

How the data were processed

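ChIP-seq peaks of HA-tagged REV-ERBα in mouse liver at ZT10 and ZT22 were analysed from 1 deposited list per time. Per the labels, each list was made by the authors from its 4 samples pooled. Tools listed in the submitters' processing notes, without roles, were MACS2 2.1.2, BWA 0.7.17, deepTools 3.3.0, SAMtools 1.9, cutadapt 2.3, Picard 2.18.12 and bcl2fastq 2.17, with mm10 as build. The control library was not stated. The fold in the deposited lists is the authors' ratio of summit to local background. The deposited −log10 q was used as a filter. The deposited score was not used.

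No library totals were used. Fragments per summit were solved from the fold and −log10 p, with a pseudocount of 1 and a lowest background of 4.14. At 98.2% of the ZT10 summits used for this check, the result lay within 0.1 of a whole number. Of 2000 simulated summits, 97.2% were recovered within 0.5 fragments. One fragment adds 0.0459 to the fold at that lowest background and less at higher ones, and no peak had a fold under 4.

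Spans (RefSeq GRCm38.p6) and starts from a promoter table were matched by symbol. Of 85 members, 70 had a start. The nearest gene is the protein-coding gene with an end closest to the summit. Python 3.11.15, pandas 2.3.3, NumPy 2.4.6, SciPy 1.17.1 and matplotlib 3.10.9 were used.

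The members and lists were chosen with earlier results of these data known. Named genes are the 3 strongest of complexes I, III, IV and V, all Sdh genes, core complex I subunits and listed isoforms, members with no summit or with 3 or more sites, and the 3 strongest of each further list. Results that name 1 member and 1 neighbouring gene are not reported here. Other settings tried were a −log10 q minimum of 10, reaches of 2 and 50 kb, distance to ends only, the nearest gene only, all annotated genes, a limit of 500 bp and listed starts.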

Additional observations from a re-analysis of the deposited data

How the results depend on the processing

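The number of members with a ZT10 summit was 73, and it stayed between 55 (−log10 q of at least 10) and 80 (reach of 50 kb) under the alternatives tried. It was 59 when each summit was given to its nearest protein-coding gene alone, and 69 with a reach of 2 kb. The number of sites moved more, from 126 to 83 with a −log10 q of at least 10, 80 with a reach of 2 kb, 300 with a reach of 50 kb and 72 with the nearest gene alone. The median strongest fold rose from 6.03 to 7.98 with a reach of 50 kb, which takes in more distant sites, and the number of members nearest to their strongest summit fell from 45 to 26. Members with a summit within 1 kb of an end were 63. They were 44 at that −log10 q minimum, 58 with a limit of 500 bp and 54 by listed starts alone. The ZT22 count was 0 under every alternative run for it. No paired analysis was possible because each time has 1 pooled list with no replicates, and no replicate could be left out. Counting intervals leave out the spread between livers. The lists begin at a fold of 4, and a member with no peak may have sites below that limit.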
